A study of Mus musculus with 26 samples.

Results

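Stage 2 thymic natural killer T (NKT) cells were set against stage 1 thymic NKT cells in 12 of the 26 libraries of the series, namely the 7 labelled NKT-2 and the 5 labelled NKT-1. All came from thymocytes of C57BL/6 mice (wild-type C57BL/6J in the design text), aged 6 to 8 weeks, and the labels give no treatment or allele that sets the stages apart. Both stages were sorted as TCRβ+ cells that bind a CD1d dimer loaded with αGalCer. Stage 2 cells were then gated as CD44+ and NK1.1-, and stage 1 cells as CD44- and NK1.1-. The study also holds stage 3 NKT cells and DN1eP thymocytes, which entered only alternative fits. The labels do not say whether replicates are separate animals or how many animals were pooled, so the p-values measure the spread between these libraries. They name a SMARTer ultra low input kit and a TruSeq kit, without saying which library had which.

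NKT cells are T lymphocytes with a nearly invariant T cell receptor that recognises lipids presented by CD1d. In the thymus they pass from CD44-low to CD44-high cells before some of them gain NK1.1, and on the way they divide into subsets that resemble type 1, type 2 and type 17 helper cells. The CD44-high, NK1.1-negative gate is known to hold a mixture of such subsets, so a level in this bulk RNA is a mean over them, and fewer cells of a type cannot be told apart from less RNA per cell.

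The libraries fell into 2 sets by the median level of their expressed genes, which the labels do not mention. Set A held 4 stage 2 libraries (1 to 4) and 2 stage 1 libraries (1 and 2), and set B held 3 stage 2 libraries (5 to 7) and 3 stage 1 libraries (3 to 5). The first principal component carried 72.4% of the variance and separated the sets, so every comparison below had a term for set, and values are given within sets. Stage 2 library 6 stood apart. Its summed B cell markers reached 2254 FPKM, against at most 135.3 FPKM in the other stage 2 libraries and 17.67 to 95.62 FPKM in stage 1. A gene was called changed only if its adjusted p was under 0.05 in limma, its difference had the same sign in both sets, and it passed again without library 6. Levels are FPKM, fragments scaled to transcript length and to the mapped fragments of the library, and fold changes are on the log2(FPKM + 1) scale, which understates the change of genes at low levels.

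Few genes met that rule. Of 10642 tested genes, 44 were called (0.413%), of which 22 were higher in stage 2 (0.207%) and 22 were lower (0.207%). With quantile normalization the calls were 49 higher and 23 lower. The median log2 fold change of all tested genes was -0.13, and -0.02 after quantile normalization. By adjusted p alone 59 genes passed (0.554%), and all 59 had the same sign in both sets, as did 61.3% of all tested genes. The 15 that were not called missed the threshold without library 6. One of them was Ccl5, which encodes a chemokine (limma adjusted p = 0.0281 with all 12 and 0.0652 without it). In 42 of the 44 called genes the libraries of the stages did not overlap within either set, which held for 84 tested genes higher in stage 2 (0.789%) and 212 lower (1.99%) over the whole table. In 20 called genes all 7 stage 2 libraries lay on one side of all 5 stage 1 libraries, against 0.507% of all tested genes. Each of the 12 libraries was also left out in turn, where passing without stage 2 library 6 was already part of the rule. The whole rule was applied each time, so a call in such a fit also had to pass with library 6 left out as well. Counted so, calls fell by over 1.5 times without stage 1 library 1 (20 calls), 2 (19) or 3 (27). They also did so without stage 2 library 1 (26), 5 (19) or 7 (20). By adjusted p with that 1 library alone left out, 35, 28 and 28 of the 44 passed without those stage 1 libraries. Without those stage 2 libraries 37, 31 and 36 of the 44 passed. By that adjusted p alone, 22 of the 44 calls passed every time, 12 of them higher in stage 2 and 10 lower. The fold change of none of the 44 changed sign. Sign in both sets and without library 6 was part of the rule, so signs that held here and below are a weak check. The deposited tables came in 2 row layouts, 1 of which was found in 5 of 7 stage 2 and 1 of 5 stage 1 libraries, and stage 2 libraries 6 and 7 shared a most abundant symbol, Mir682, that was not the top symbol of any other of the 12. With layout as a further term 25 genes were called and 21 of the 44 passed, and without both libraries 24 were called and 19 of the 44 passed, all with their sign. Of the 22 calls that passed with each library left out, 16 also passed in both of these fits, and the other 6 were Il18rap, Ptpn22, Ldhb, Lztfl1, Mctp1 and Slc15a1.

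**Figure D1:**
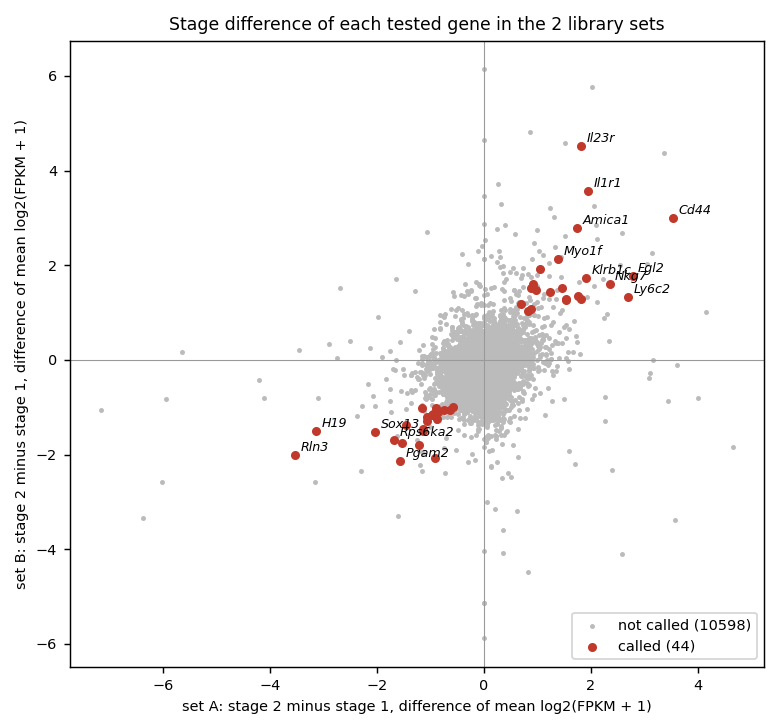
Stage 2 minus stage 1 difference of mean log2(FPKM + 1) of each tested gene in library set A (horizontal axis) and set B (vertical axis), with the 44 called genes in red and the other tested genes in grey. All called genes lie in the quadrants where both sets have the same sign, with Cd44 farthest to the upper right and Rln3 and H19 to the lower left.

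Cd44, the hyaluronan receptor on which the stages were sorted, is no finding and serves as a check of the labels. Stage 2 libraries of set A had 48.4, 75.9, 57.7 and 55.8 FPKM of Cd44, against 4.98 and 3.45 FPKM in stage 1. Those of set B had 27.5, 42.9 and 34.7 FPKM, against 4.72, 3.69 and 2.22 FPKM in stage 1. The lowest stage 2 library lay well above the highest stage 1 library, in the direction of the gate. Cd24a, which encodes heat stable antigen, was too low to be tested, at 0 to 6.09 FPKM in stage 2 and 0 to 0.789 FPKM in stage 1, with the highest value in library 6.

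Klrb1c encodes NK1.1, for which both gates were negative, and its RNA was nevertheless higher in stage 2. It had 19.0, 48.6, 15.8 and 19.0 FPKM in stage 2 libraries of set A, against 4.20 and 6.77 FPKM in stage 1. Set B gave 23.2, 27.1 and 15.8 FPKM in stage 2, against 4.46, 8.47 and 4.99 FPKM in stage 1. All 7 stage 2 libraries lay above all 5 stage 1 libraries, and the log2 fold change was 1.82 ± 0.26 (SE, limma, adjusted p = 0.00358). Its neighbour Klrb1b, which encodes the inhibitory receptor NKR-P1B, rose as well, at a much lower level. Klrb1b had 0.933 to 2.53 FPKM in stage 2 of set A, against 0.263 and 0.134 FPKM in stage 1, and 2.49 to 5.63 FPKM in stage 2 of set B, against 0.161 to 0.222 FPKM in stage 1 (log2 fold change 1.51 ± 0.23, limma adjusted p = 0.00523). Both calls held with each library left out. The 2 other genes of the family that were tested were not called. Klrb1f, which encodes NKR-P1F, had 1.07 to 20.1 FPKM in stage 2 and 0 to 1.86 FPKM in stage 1 (limma adjusted p = 0.0734, and 0.0274 without library 6), and Klrb1a had 2.33 to 7.95 FPKM in stage 2 and 0.959 to 4.02 FPKM in stage 1 (limma adjusted p = 0.417). The family was picked out after its values were seen. These genes resemble each other in sequence, so reads could have been shared between them.

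The 250 bases before the start of both called Klrb1 genes are shown because the genes lie near each other on mouse chromosome 6 and moved the same way (mm9 gene intervals in the files: 128728503 to 128738659 for Klrb1c and 128763724 to 128776333 for Klrb1b). They are RefSeq sequences of GRCm38.p6, minus strand, 5′ to 3′, at chr6:128788642-128788891 for Klrb1c and chr6:128826316-128826565 for Klrb1b. Capitals mark matches on either strand to any of 4 short motifs, namely GGTGTGA (T-box core), TGTGGT (Runx core), CTTTGA (TCF/LEF core) and CAGGTG (E-box).
Klrb1c: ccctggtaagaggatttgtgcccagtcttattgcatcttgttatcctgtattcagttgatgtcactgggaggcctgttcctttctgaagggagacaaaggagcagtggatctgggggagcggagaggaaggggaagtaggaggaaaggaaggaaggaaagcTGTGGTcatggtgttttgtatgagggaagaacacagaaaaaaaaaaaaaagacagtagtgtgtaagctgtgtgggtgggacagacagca
Klrb1b: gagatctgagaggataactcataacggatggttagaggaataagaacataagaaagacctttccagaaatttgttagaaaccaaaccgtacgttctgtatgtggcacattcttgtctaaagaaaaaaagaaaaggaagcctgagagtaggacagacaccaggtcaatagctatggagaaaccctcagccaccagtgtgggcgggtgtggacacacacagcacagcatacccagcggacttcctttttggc
Klrb1c had 1 match, to the Runx core, which occurs in 14.0% of 32851 promoters of the same length. Klrb1b had no match to these letters in this window. RefSeq gives 2 starts for Klrb1b, of which 1 is shown.

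The rises included 4 receptor genes for interleukins of the IL-1 family and for IL-23. Il18r1 and Il18rap encode the chains of the receptor for IL-18, a cytokine that drives interferon-γ production by NKT and NK cells. Il1r1 encodes the signalling receptor for IL-1, and Il23r a chain of the IL-23 receptor, both of which act on IL-17-producing lymphocytes. Of 39 tested genes in a list of cytokine receptors and their signalling, these 4 were called, all higher in stage 2, and none was lower. The call rule took 0.207% of all tested genes as higher and 0.207% as lower. The list's median log2 fold change was 0.15, against -0.13 over all tested genes. With file layout as a further term the list had 0 calls in limma and all 4 genes missed the threshold (adjusted p = 0.0521 for Il18rap, 0.0804 for Il18r1, 0.130 for Il1r1 and 0.164 for Il23r), while their signs held.

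Il18rap had 29.1, 58.2, 39.1 and 33.1 FPKM in stage 2 of set A, against 11.9 and 13.4 FPKM in stage 1. Libraries of set B gave 19.7, 18.1 and 14.3 FPKM in stage 2, against 12.3, 5.32 and 4.23 FPKM in stage 1. The stages were separate within each set, and the log2 fold change was 1.39 ± 0.23 (SE, limma, adjusted p = 0.00689). Its partner Il18r1 was several times more abundant in both stages and changed less. Il18r1 had 178, 167, 174 and 218 FPKM in stage 2 of set A, against 116 and 110 FPKM in stage 1, and 94.4, 77.9 and 70.4 FPKM in stage 2 of set B, against 49.0, 36.7 and 22.9 FPKM in stage 1. That was a log2 fold change of 0.96 ± 0.18 (limma adjusted p = 0.0193), which missed the threshold without stage 1 library 2 or 4 or stage 2 library 5 (adjusted p 0.0526 to 0.0565).

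The genes of the IL-1 receptor family lie together on mouse chromosome 1, Il18r1 at 40522397 to 40557699 and Il18rap at 40572207 to 40606142 (mm9 gene intervals in the files). Their 250 bases before the start are shown because the genes are direct neighbours that rose together. The RefSeq sequences are of GRCm38.p6, plus strand, 5′ to 3′, at chr1:40465302-40465551 for Il18r1 and chr1:40515112-40515361 for Il18rap, with capitals for the same 4 motifs. RefSeq gives 3 starts for Il18r1, of which 1 is shown.
Il18r1: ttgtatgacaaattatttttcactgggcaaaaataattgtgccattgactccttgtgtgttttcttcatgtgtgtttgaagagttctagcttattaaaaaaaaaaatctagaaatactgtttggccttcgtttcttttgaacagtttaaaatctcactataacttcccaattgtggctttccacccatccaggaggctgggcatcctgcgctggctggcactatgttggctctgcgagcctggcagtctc
Il18rap: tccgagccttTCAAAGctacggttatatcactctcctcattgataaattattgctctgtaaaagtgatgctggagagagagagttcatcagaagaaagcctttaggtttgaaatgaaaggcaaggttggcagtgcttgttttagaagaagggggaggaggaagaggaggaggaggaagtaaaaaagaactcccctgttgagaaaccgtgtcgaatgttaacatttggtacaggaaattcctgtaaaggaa
Il18rap had 1 match, to the reverse complement of the TCF/LEF core, which occurs in 13.8% of promoters of this length. Il18r1 had none of these letters in this window. Among the other genes of this cluster, Il1rl1, which encodes the IL-33 receptor, had 0.289 to 2.66 FPKM in stage 2 and 0.0339 to 0.662 FPKM in stage 1 and was not called (log2 fold change 0.52, limma adjusted p = 0.295). Il1rl2, a receptor for IL-36, was not called either (log2 fold change -0.19, limma adjusted p = 0.833), and Il1r2, the decoy receptor for IL-1, was too low to be tested. The cluster was looked at as a group after these values were seen.

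Il1r1 had 11.9, 7.25, 3.35 and 5.23 FPKM in stage 2 of set A, against 0.615 and 1.24 FPKM in stage 1. The values in set B were 12.3, 59.6 and 8.88 FPKM in stage 2, against a mean of 0.690 ± 0.190 FPKM in stage 1 (SD, n = 3). Every stage 2 library lay above every stage 1 library, by a log2 fold change of 2.80 ± 0.48 (limma adjusted p = 0.0281). Il23r had 9.18, 3.33, 1.43 and 2.81 FPKM in stage 2 of set A, against 0.190 and 0.353 FPKM in stage 1. Set B gave 18.7, 59.0 and 10.6 FPKM of Il23r in stage 2, against 0, 0.104 and 0.0207 FPKM in stage 1. The stages were again separate, with a log2 fold change of 3.25 ± 0.60 (limma adjusted p = 0.0483). In both genes the highest value, over 3 times the next, came from library 6. Without it the log2 fold changes were 2.34 for Il1r1 (adjusted p = 0.000482) and 2.79 for Il23r (adjusted p = 0.0140). Both calls also depended on other single libraries. Il1r1 missed the threshold without any 1 of stage 1 libraries 1, 3, 4 and 5 and stage 2 libraries 1, 2 and 5 (log2 fold change 2.68 to 2.92, adjusted p 0.0549 to 0.0966). Il23r did so without any 1 of the 5 stage 1 libraries or of stage 2 libraries 1, 2, 4, 5 and 7 (log2 fold change 3.09 to 3.62, adjusted p 0.0639 to 0.135).

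Of 35 tested genes of type 1 NKT cells and cytotoxic lymphocytes 5 rose (Klrb1c, Klra7, Nkg7, Il18rap and Ly6c2) and none fell. The called share of all tested genes was 0.207% higher and 0.207% lower. The list's median log2 fold change was 0.88, against -0.13 over all tested genes. Il18rap was also counted in the cytokine receptor list. Nkg7, a membrane protein of cytotoxic granules, had 94.4, 155, 95.7 and 110 FPKM in stage 2 of set A, against 16.6 and 26.5 FPKM in stage 1. In set B, where the gene was more abundant, it had 465, 223 and 383 FPKM in stage 2, against 114, 196 and 61.9 FPKM in stage 1. The stages were separate within each set and overlapped across sets, and the log2 fold change was 1.96 ± 0.29 (limma adjusted p = 0.00523). Ly6c2, a lipid-anchored surface protein of effector lymphocytes, had 86.9 to 130 FPKM in stage 2 of set A, against 15.5 and 16.9 FPKM in stage 1. Set B gave 163, 111 and 128 FPKM in stage 2, against 32.4, 42.2 and 102 FPKM in stage 1, so that 1 stage 1 library came close to stage 2 (log2 fold change 1.98 ± 0.30, limma adjusted p = 0.00767). Ly6c2 has a near-identical copy, so its level is uncertain. The same holds for Klra7, a Ly49 receptor gene with overlapping neighbours, at 3.23 to 7.90 FPKM in stage 2 and 0.357 to 4.27 FPKM in stage 1. Its call (log2 fold change 1.34, limma adjusted p = 0.0191) missed the threshold without stage 1 library 1 or 3 (adjusted p 0.0692 to 0.0756), with layout as a further term (0.137) and without stage 2 libraries 6 and 7 (0.118). Summed NK cell markers were 63.1 FPKM in library 6, 10.52 to 40.74 FPKM in the other stage 2 libraries and 5.129 to 36.48 FPKM in stage 1, and 0 of the 4 tested were called. The part of NK cells in these levels was not tested.

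Gzmb, Ifng and Il2rb, of the same list, were not called. Gzmb, which encodes granzyme B, had 17.3, 12.5, 6.87 and 0.663 FPKM in stage 2 of set A, against 2.05 and 0 FPKM in stage 1. In set B Gzmb had 25.7, 40.2 and 23.3 FPKM in stage 2, against 6.96, 5.12 and 1.68 FPKM in stage 1 (log2 fold change 2.35 ± 0.60, limma adjusted p = 0.140). Stage 2 library 4 was the exception in set A. Ifng, the gene of interferon-γ, ranged over 0.479 to 47.8 FPKM in stage 2 and 1.32 to 15.5 FPKM in stage 1 (log2 fold change 1.09 ± 0.99, limma adjusted p = 0.701). Il2rb, a chain of the IL-2 and IL-15 receptors, had a log2 fold change of 0.53 ± 0.17 (limma adjusted p = 0.202). At unadjusted p under 0.05 with the same sign in both sets, 21 of the 35 members were higher and 0 lower, where the share of all tested genes was 2.65% higher and 8.7% lower.

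**Figure D2:**
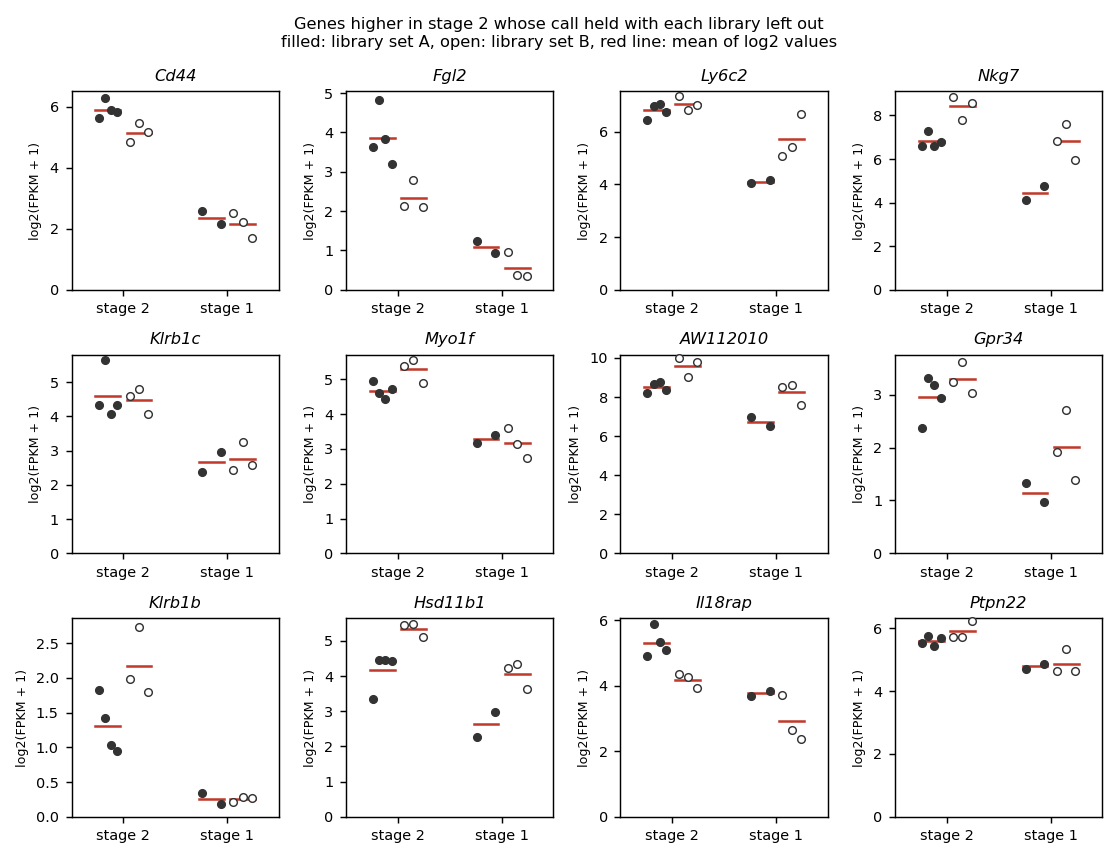
Level, as log2(FPKM + 1), of the 12 genes higher in stage 2 whose call passed with each library left out, with stage 2 on the left and stage 1 on the right of each panel. Filled points are libraries of set A, open points libraries of set B, and red lines the mean of the log2 values. Within each set the stage 2 points lie above the stage 1 points in all 12 panels.

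Of 23 tested genes linked to type 17 NKT cells 3 rose (Il23r, Il1r1 and Il18r1) and none fell, with a median log2 fold change of 1.0. All 3 were already counted in the cytokine receptor list, so the 2 lists are not separate results. Among all tested genes the called share was 0.207% higher and 0.207% lower. With file layout as a further term 0 members were called in limma (adjusted p = 0.0804 for Il18r1, 0.130 for Il1r1 and 0.164 for Il23r). At unadjusted p under 0.05 and the same sign in both sets 15 of 23 were higher and 0 lower, where 2.65% of all tested genes were higher and 8.7% lower. Ccr6, a chemokine receptor of IL-17-producing cells, showed how uneven this group was between libraries. It had 9.93 FPKM in stage 2 library 1 and was listed at 0 in the 3 other stage 2 libraries of set A and in both stage 1 libraries. Ccr6 in set B had 15.5, 102 and 13.3 FPKM in stage 2, against 0, 0.0469 and 0.0464 FPKM in stage 1 (limma adjusted p = 0.285). Library 6 was the highest here too, and it also had the lowest Cd4, which encodes the CD4 coreceptor, at 0.843 FPKM, against 36.7 to 87.3 FPKM in the other stage 2 libraries and 30.1 to 80.5 FPKM in stage 1. Summed markers of γδ T cells were 217.4 FPKM in library 6, at most 80.06 FPKM in the other stage 2 libraries and 32.51 to 96.63 FPKM in stage 1. Those sums include Sox13, which was called lower in stage 2, the 1 called member of 5 tested. The part of other cells in the levels of Sox13 and of the type 17 genes was not tested. Without library 6 the list's median log2 fold change was 0.82.

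The strongest rise after Cd44 by p was Myo1f, an unconventional myosin of immune cells. It had 29.7, 23.2, 20.5 and 25.4 FPKM in stage 2 of set A, against 8.04 and 9.55 FPKM in stage 1, and 41.1, 46.3 and 29.0 FPKM in stage 2 of set B, against 11.1, 7.77 and 5.70 FPKM in stage 1. No stage 2 library came down to a stage 1 library, and the log2 fold change was 1.78 ± 0.20 (limma adjusted p = 0.000232). AW112010 had 292, 402, 437 and 332 FPKM in stage 2 of set A, against 123 and 90.3 FPKM in stage 1. In set B it had 1011, 516 and 884 FPKM in stage 2, against 368, 395 and 192 FPKM in stage 1 (log2 fold change 1.54 ± 0.23, limma adjusted p = 0.00369). It was among the most abundant of the genes that rose. Hsd11b1, whose enzyme regenerates active glucocorticoid, had 9.14 to 21.1 FPKM in stage 2 of set A, against 3.86 and 6.89 FPKM in stage 1, and 33.8 to 43.6 FPKM in stage 2 of set B, against 11.3 to 19.4 FPKM in stage 1 (log2 fold change 1.41 ± 0.22, limma adjusted p = 0.00523). Ptpn22, a tyrosine phosphatase that dampens T cell receptor signalling, was the 1 called member of 35 tested genes of that pathway. Ptpn22 had 42.7 to 53.5 FPKM in stage 2 of set A, against 24.9 and 28.4 FPKM in stage 1, and 52.2 to 74.4 FPKM in stage 2 of set B, against 23.8 to 39.7 FPKM in stage 1, and all stage 2 libraries were above all stage 1 libraries (log2 fold change 0.93 ± 0.16, limma adjusted p = 0.0123). It missed the threshold with layout as a further term (adjusted p = 0.0827) and without stage 2 libraries 6 and 7 (0.0824).

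Fgl2 and Gpr34 rose at lower levels. Fgl2, a fibrinogen-like protein of T cells and macrophages, had 11.3, 27.2, 13.2 and 8.11 FPKM in stage 2 of set A, against 1.36 and 0.904 FPKM in stage 1. Values in set B were 3.35, 5.97 and 3.33 FPKM in stage 2, against 0.943, 0.308 and 0.278 FPKM in stage 1 (log2 fold change 2.25 ± 0.28, limma adjusted p = 0.000688). All 7 stage 2 libraries were above all 5 stage 1 libraries. Gpr34, a receptor for lysophosphatidylserine, had 4.16 to 11.3 FPKM in stage 2 and 0.951 to 5.52 FPKM in stage 1 (log2 fold change 1.53 ± 0.24, limma adjusted p = 0.00523). Both held with each library left out.

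The remaining 6 rises depended on single libraries. Amica1, a junctional adhesion molecule of leukocytes, had 7.12 to 17.8 FPKM in stage 2 of set A, against 3.77 and 1.43 FPKM in stage 1, and 25.9, 82.5 and 24.4 FPKM in stage 2 of set B, against 3.72, 10.4 and 2.16 FPKM in stage 1 (log2 fold change 2.30, limma adjusted p = 0.0355). St3gal6, a sialyltransferase, had 17.4 to 105 FPKM in stage 2 and 6.39 to 29.7 FPKM in stage 1 (log2 fold change 1.49, limma adjusted p = 0.0304). In both genes library 6 was the highest. Leaving out any 1 of 7 libraries took Amica1 past 0.05 (stage 1 libraries 2 and 3 and stage 2 libraries 1, 2, 3, 5 and 7, adjusted p 0.0577 to 0.139), and any 1 of 6 did so for St3gal6 (libraries 1, 2 and 3 of each stage, adjusted p 0.0552 to 0.131). Rnase4, a secreted ribonuclease, had 7.04 to 38.1 FPKM in stage 2 and 3.67 to 8.95 FPKM in stage 1 (log2 fold change 1.23) and missed the threshold without stage 1 library 2, 3, 4 or 5 or stage 2 library 1 or 5 (adjusted p 0.0505 to 0.0870). Pcsk1, a proprotein convertase, had 25.7 to 47.6 FPKM in stage 2 and 5.66 to 21.6 FPKM in stage 1 (log2 fold change 1.25) and did so without stage 1 library 2 or stage 2 library 5 or 7 (adjusted p 0.0505 to 0.1). Gpr171, a G protein-coupled receptor gene, had 13.9 to 57.6 FPKM in stage 2 and 7.97 to 29.4 FPKM in stage 1 (log2 fold change 0.99), and its call was lost without stage 1 library 2 (limma adjusted p = 0.0565). Cd38, an NAD-consuming surface enzyme, had 2.06 to 14.0 FPKM in stage 2 and 1.18 to 4.28 FPKM in stage 1 (log2 fold change 1.28), and its call was lost without stage 1 library 3 (limma adjusted p = 0.0561). In all 6 genes the stages were separate within each set. Of the 6, Gpr171 passed with layout as a further term (adjusted p = 0.0396) and none passed without stage 2 libraries 6 and 7 (adjusted p 0.0573 to 0.146).

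The 22 genes that fell included 3 regulators of transcription known from T cell development, Sox13, Lef1 and Id3. Sox13, an SRY-box transcription factor, is also on the list of γδ T cell markers used here. It had 8.35, 6.09, 6.96 and 8.69 FPKM in stage 2 of set A, against 27.9 and 40.2 FPKM in stage 1. In set B, where the level was lower, it had 1.72, 1.85 and 1.19 FPKM in stage 2, against 4.56, 5.95 and 9.41 FPKM in stage 1. The stages were separate within each set, and the log2 fold change was -1.76 ± 0.20 (SE, limma, adjusted p = 0.000232). Lef1, a partner of β-catenin at target genes, had 46.9, 49.8, 50.9 and 57.4 FPKM in stage 2 of set A, against 104 and 123 FPKM in stage 1. In set B Lef1 had 40.4, 17.4 and 40.5 FPKM in stage 2, against 66.7, 87.8 and 119 FPKM in stage 1. All stage 2 libraries were below all stage 1 libraries, by a log2 fold change of -1.33 ± 0.21 (limma adjusted p = 0.00523), and of -1.12 without library 6, the lowest of them.

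Id3, an inhibitor of E proteins, had 99.5, 113, 121 and 172 FPKM in stage 2 of set A, against 202 and 260 FPKM in stage 1. In set B Id3 had 235, 140 and 188 FPKM in stage 2, against 405, 296 and 424 FPKM in stage 1. The stages were separate within each set (log2 fold change -0.95 ± 0.18, limma adjusted p = 0.0193), but the call missed the threshold without stage 1 library 2 or 3 (adjusted p 0.0708 to 0.1), with layout as a further term (0.0755) and without stage 2 libraries 6 and 7 (0.11). Its relative Id2 did not pass, at 333 to 1957 FPKM in stage 2 and 323 to 2147 FPKM in stage 1 (log2 fold change 0.31 ± 0.21, limma adjusted p = 0.591, and -0.058 with no term for set). The 2 sets differed in Id2 far more than the stages did. Its lowest level in set B was 789 FPKM and its highest in set A was 424 FPKM.

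Master regulators of the NKT lineage were not called. Zbtb16, which encodes PLZF, had 47.1, 64.1, 54.7 and 76.0 FPKM in stage 2 of set A, against 80.7 and 113 FPKM in stage 1. In set B it had 11, 7.28 and 5.51 FPKM in stage 2, against 13.1, 16.6 and 9.77 FPKM in stage 1. Zbtb16 was lower in stage 2 within set A, where the stages did not overlap, and overlapped in set B (log2 fold change -0.68 ± 0.19, limma adjusted p = 0.127). Tbx21, the gene of T-bet, had 26.8 to 56.1 FPKM in stage 2 of set A, against 14.5 and 30.2 FPKM in stage 1, and 1.67 to 5.38 FPKM in stage 2 of set B, against 1.89 to 2.99 FPKM in stage 1 (log2 fold change 0.62 ± 0.25, limma adjusted p = 0.345). Runx3 had a log2 fold change of 0.56 ± 0.18 (limma adjusted p = 0.191), Klf2, a regulator of egress, -0.57 ± 0.24 (0.372), Gata3, a factor of type 2 cells, -0.33 ± 0.16 (0.462), and Egr2, a factor induced by T cell receptor signals, -0.25 ± 0.21 (0.663). A missed threshold does not show that their levels were alike.

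Of 26 tested early NKT and progenitor genes 3 fell (Lef1, Id3 and Ldhb) and none rose, with a median log2 fold change of -0.27. Among all tested genes 0.207% were called lower and 0.207% higher. At unadjusted p under 0.05 with the same sign in both sets 9 of the 26 were lower and 0 higher. That threshold took 8.7% of all tested genes as lower and 2.65% as higher. Ldhb, a lactate dehydrogenase subunit, had 16.3 to 22.9 FPKM in stage 2 of set A, against 40.5 and 40.8 FPKM in stage 1, and 27.0 to 41.1 FPKM in stage 2 of set B, against 51.7 to 107 FPKM in stage 1 (log2 fold change -1.07 ± 0.18, limma adjusted p = 0.00910). Pdlim1, a PDZ and LIM domain protein of the actin cytoskeleton, had 56.4 to 71.9 FPKM in stage 2 of set A, against 111 and 99.1 FPKM in stage 1, and 70.0 to 96.2 FPKM in stage 2 of set B, against 148 to 171 FPKM in stage 1 (log2 fold change -0.91 ± 0.14, limma adjusted p = 0.00523). Lztfl1, a leucine zipper protein of the cilium trafficking machinery, had 8.52 to 20.7 FPKM in stage 2 of set A, against 22.8 and 34.1 FPKM in stage 1, and 5.51 to 9.44 FPKM in stage 2 of set B, against 33.2 to 36.5 FPKM in stage 1 (log2 fold change -1.53 ± 0.25, limma adjusted p = 0.00693). Every stage 2 library was below every stage 1 library for Pdlim1 and Lztfl1, and within each set for Ldhb. These 3 calls held with each library left out. Ldhb missed the threshold with layout as a further term (limma adjusted p = 0.0717) and without stage 2 libraries 6 and 7 (0.0842), and Lztfl1 missed it without those libraries (0.0684). In either fit the early NKT list had 1 call, against 3.

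Slc15a1, Cdh3 and Slc29a1, which encode membrane proteins, fell as well. Slc15a1, a peptide transporter, had 2.59 to 6.07 FPKM in stage 2 of set A, against 14.1 and 10.3 FPKM in stage 1, and 1.57 to 4.31 FPKM in stage 2 of set B, against 6.35 to 15.6 FPKM in stage 1 (log2 fold change -1.65 ± 0.25, limma adjusted p = 0.00523). Cdh3, which encodes P-cadherin, had 2.06 to 3.06 FPKM in stage 2 of set A, against 7.84 and 6.49 FPKM in stage 1, and 0.130 to 0.689 FPKM in stage 2 of set B, against 2.98 to 4.19 FPKM in stage 1 (log2 fold change -1.52 ± 0.19, limma adjusted p = 0.000688). Slc29a1, a nucleoside transporter, was at 53.0 to 59.8 FPKM in stage 2 of set A, against 84.2 and 83.5 FPKM in stage 1, and at 35.6 to 64.9 FPKM in stage 2 of set B, against 89.4 to 117 FPKM in stage 1 (log2 fold change -0.81 ± 0.16, limma adjusted p = 0.0291). All 7 stage 2 libraries were below all 5 stage 1 libraries for Slc29a1. It still missed the threshold without any 1 of stage 1 libraries 1 to 4 or stage 2 libraries 3, 4 and 5 (adjusted p 0.0501 to 0.101). Neither did it pass with layout as a further term (adjusted p = 0.147) or without stage 2 libraries 6 and 7 (0.0751). Slc15a1 and Cdh3 held with each library left out, and Slc15a1 missed the threshold without stage 2 libraries 6 and 7 (limma adjusted p = 0.0571). Rps6ka2, a ribosomal S6 kinase, had 1.81 to 2.38 FPKM in stage 2 of set A, against 8.03 and 10.2 FPKM in stage 1, and 0.159 to 0.334 FPKM in stage 2 of set B, against 2.02 to 4.93 FPKM in stage 1 (log2 fold change -1.68 ± 0.19, limma adjusted p = 0.000232). Lad1, an anchoring filament protein (log2 fold change -1.14), and Mctp1, a calcium-binding membrane protein (-1.30), held with each library left out as well. Mctp1 missed the threshold with layout as a further term (limma adjusted p = 0.0687) and without stage 2 libraries 6 and 7 (0.0836).

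Dhrs3, a reductase of retinaldehyde, had 6.52, 14.0, 7.28 and 11.9 FPKM in stage 2 of set A, against 16.5 and 26.7 FPKM in stage 1, and 31.8, 18.3 and 31.5 FPKM in stage 2 of set B, against 58.9, 76.5 and 64.1 FPKM in stage 1. The stages were separate within each set (log2 fold change -1.19 ± 0.21, limma adjusted p = 0.0131), and the call was lost without stage 1 library 2 (log2 fold change -1.10, adjusted p = 0.0733) and without stage 2 libraries 6 and 7 (0.0848). H19, an imprinted noncoding RNA, had 1.95 to 4.90 FPKM in stage 2 of set A, against 24.0 and 44.5 FPKM in stage 1, and 0, 0 and 0.786 FPKM in stage 2 of set B, against 0.587 to 4.10 FPKM in stage 1, where the stages overlapped. Its call was lost without stage 1 library 1, 3 or 4 (adjusted p 0.0526 to 0.0677), with layout as a further term (0.0687) and without stage 2 libraries 6 and 7 (0.136). Rln3, which encodes relaxin-3, was listed at 0 in 3 of 4 stage 2 libraries of set A and had 0.276 FPKM in the other, against 3.93 and 29.7 FPKM in stage 1. In set B Rln3 had 0.717, 1.5 and 1.81 FPKM in stage 2, against 4.37, 9.34 and 13.1 FPKM in stage 1, and its call was lost without stage 2 library 5 (adjusted p = 0.0505).

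Of the other 7 falls, Mgst2, a glutathione transferase, had 41.6 to 130 FPKM in stage 2 and 67.3 to 246 FPKM in stage 1, separate within each set (log2 fold change -0.86, limma adjusted p = 0.0483). It missed the threshold without any 1 of 10 libraries, all but stage 1 library 5 and stage 2 library 6 (adjusted p 0.0505 to 0.130). Smo, the Hedgehog signal transducer, had 1.05 to 10.1 FPKM in stage 2 and 1.86 to 21.9 FPKM in stage 1, and in set B the stages overlapped. It did so without any 1 of 9 libraries, all but stage 1 library 5 and stage 2 libraries 2 and 6 (adjusted p 0.0502 to 0.103). Pgam2, the muscle form of phosphoglycerate mutase, was lost without stage 1 library 2 or 3 or stage 2 library 5 or 7 (adjusted p 0.0505 to 0.0959). Prss23, a serine protease, was lost without stage 1 library 2, 3 or 4 or stage 2 library 5 (adjusted p 0.0505 to 0.0708), and Adamtsl3 without stage 1 library 2 or 3 (adjusted p 0.0677 to 0.0711). Sh3bgrl2 was lost without stage 1 library 2 or stage 2 library 5 or 7 (adjusted p 0.0505 to 0.103). The last, 4932438H23Rik, was lost without stage 1 library 1, 3 or 4 or stage 2 library 7 (adjusted p 0.0598 to 0.0708). These 7 had log2 fold changes of -1.87 to -0.86 with all 12 libraries, and none of them passed with layout as a further term or without stage 2 libraries 6 and 7.

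**Figure D3:**
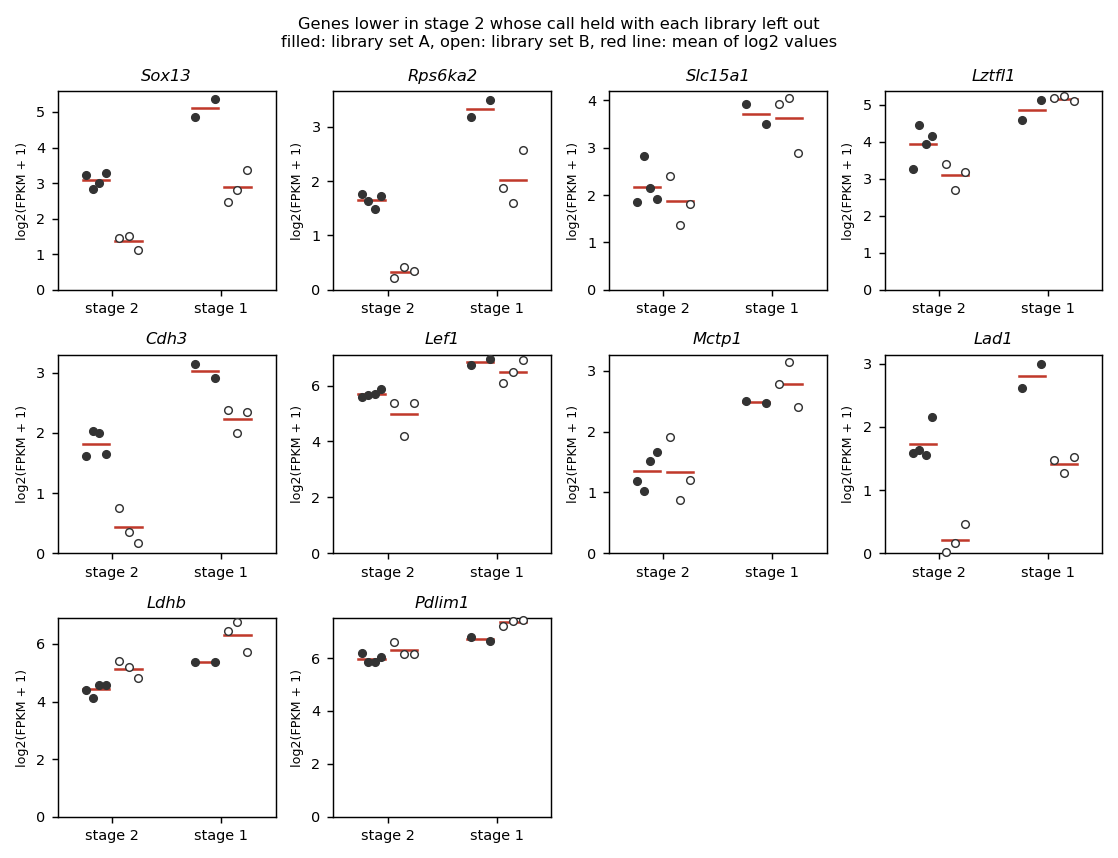
Level, as log2(FPKM + 1), of the 10 genes lower in stage 2 whose call passed with each library left out, with stage 2 on the left and stage 1 on the right of each panel. Filled points are libraries of set A, open points libraries of set B, and red lines the mean of the log2 values. Within each set the stage 2 points lie below the stage 1 points in all 10 panels, and levels of Sox13, Rps6ka2, Cdh3 and Lad1 are lower in set B than in set A in both stages.

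Several groups tied to growth and division had 0 calls in limma. Of 41 tested cell cycle genes 14 were lower at unadjusted p under 0.05 with the same sign in both sets and 0 higher, with a median log2 fold change of -0.24. Mki67, a marker of dividing cells, had 46.4 to 68.7 FPKM in stage 2 of set A, against 54.0 and 74.3 FPKM in stage 1, and 8.35 to 18 FPKM in stage 2 of set B, against 10.8 to 20.5 FPKM in stage 1, with overlap in both sets (limma adjusted p = 0.666). Myc and ribosome biogenesis genes had a median of -0.38, with 13 of 29 lower and 0 higher at that unadjusted threshold. Glycolysis and hypoxia genes had a median of -0.28, with 9 of 23 lower and 1 higher. Relative to the median of all tested genes these 3 medians were -0.11, -0.26 and -0.15, and 8.7% of all tested genes were lower at the same threshold. Cholesterol synthesis genes had a median of -0.19 and 1 of 20 lower at that threshold.

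Type 2 cytokine genes also had 0 calls in limma among 18 tested. Their median log2 fold change was -0.32 (-0.19 without library 6), and at unadjusted p under 0.05 with the same sign in both sets 1 was higher and 5 were lower, where 2.65% of all tested genes were higher and 8.7% lower. Il4, the gene of interleukin-4, had 57.3 to 105 FPKM in stage 2 of set A, against 76.9 and 113 FPKM in stage 1, and 58.0 to 189 FPKM in stage 2 of set B, against 143 to 223 FPKM in stage 1 (log2 fold change -0.45 ± 0.27, limma adjusted p = 0.549). The stages overlapped in both sets.

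Other lists had at most 1 call. The chemokine receptor, integrin and egress list had Cd44 alone among 33 tested, and the S100, annexin, galectin and cytoskeleton list had Myo1f alone among 29. AP-1 and immediate early genes had 0 calls among 25 and a median log2 fold change of 0.49, with 3 higher and 0 lower at unadjusted p under 0.05 and the same sign in both sets. By that threshold 2.65% of all tested genes were higher and 8.7% lower. Interferon response genes had 0 of 35 (median 0.11, 7 higher and 1 lower), and GIMAP genes 0 of 8 (median 0.32, 2 higher). Survival genes had 0 of 23 (median 0.00, 4 higher and 1 lower) and TNF family and costimulatory receptors 0 of 27 (median -0.01, 3 higher and 2 lower). The medians of the TNF family list and of the T cell receptor signalling list, -0.01 and -0.10, turned to 0.10 and 0.01 with upper-quartile scaling. In the fit of the 18 thymic NKT libraries the survival and GIMAP lists had 1 call each, and the others of this paragraph kept their counts.

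**Figure D4:**
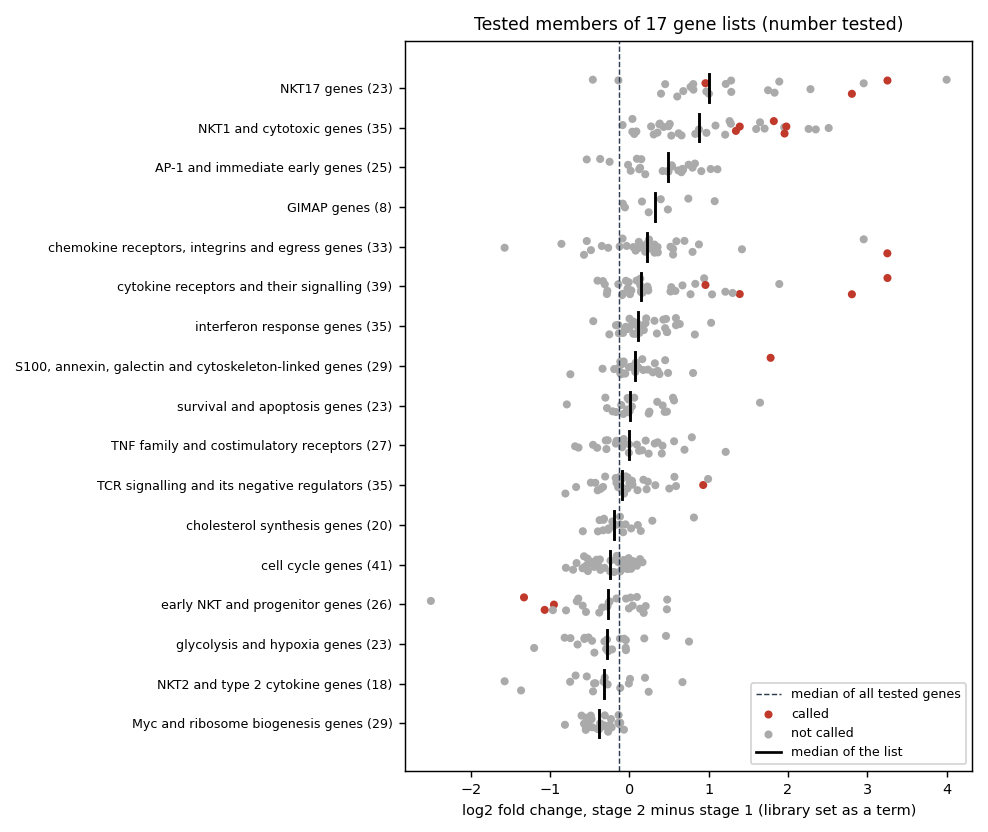
Log2 fold change of stage 2 minus stage 1 of the tested members of 17 gene lists (number tested in brackets), with called genes in red, the others in grey, the list's median as a black bar and the median of all tested genes, -0.13, as a dashed line. The medians of the NKT17 list (1.0) and of the NKT1 and cytotoxic list (0.88) lie farthest to the right, and that of the Myc and ribosome biogenesis list (-0.38) farthest to the left.

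The difference between stages was also compared between the sets. The interaction of stage and set passed at adjusted p under 0.05 in limma for 0 of 10642 genes, and 385 had an unadjusted p under 0.05. The count was 117 without stage 2 library 5, which left libraries 6 and 7 as the stage 2 libraries of set B, 4 without stage 1 library 1, 2 without stage 1 library 4 or stage 2 library 6, and 1 without stage 2 library 7.

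Markers of the sorted cells and of others were read in every library. Summed NKT and T cell markers lay at 2446 to 4782 FPKM in stage 2 and 2524 to 5752 FPKM in stage 1, and 0 of the 10 were called. In library 6, 13 of 15 B cell markers were at their highest, summed myeloid markers were 176.5 FPKM, against at most 4.485 FPKM in other stage 2 libraries and 1.514 to 14.53 FPKM in stage 1, and summed erythroid markers were 198.6 FPKM, against at most 2.372 FPKM in other stage 2 libraries and 0.0588 to 1.883 FPKM in stage 1. NK cell markers, given above, were highest there as well. It held the highest level of 10 of the 22 genes that rose and the lowest level of 7 of the 22 that fell. Passing without it was a condition of the call, so that each of the 44 did so is no test of its part. Summed markers of double-positive and early thymocytes were 90.3 to 127 FPKM in stage 2 and 73.99 to 127 FPKM in stage 1. The highest stage 2 sum was that of library 6, where 5 of the 12 markers were at their highest. This list includes Cd4, which was lowest in library 6, so the sum hides higher levels of other members there. Summed markers of epithelium and stroma were 20.31 to 58.48 FPKM in stage 2 and 23.08 to 53.51 FPKM in stage 1. Krt5 and Foxn1 of the thymic epithelium were at 0 in all 12 libraries, and Clec9a of dendritic cells and Slc4a1 of red cells likewise. The part of these cells in the other results was not tested.

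**Figure D5:**
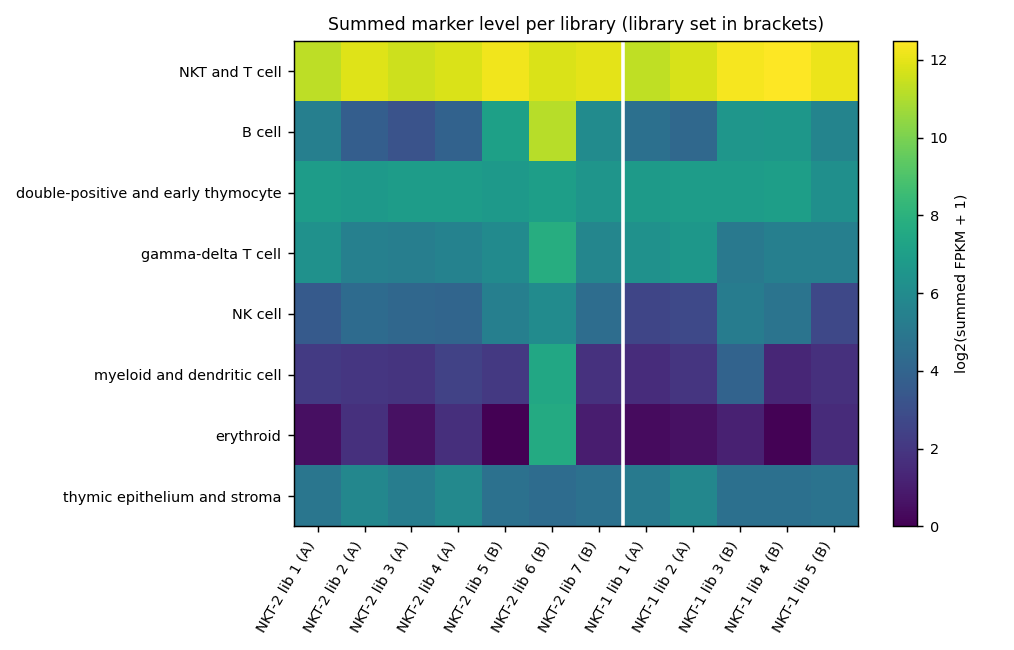
Summed level of 8 marker lists, as log2(summed FPKM + 1), in each of the 7 stage 2 (NKT-2) and 5 stage 1 (NKT-1) libraries, with the library set in brackets and a white line between the stages. B cell, γδ T cell, NK cell, myeloid and erythroid markers are highest in NKT-2 library 6, while NKT and T cell markers are high in all 12 libraries.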

How the data were processed

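RNA of sorted thymocytes was sequenced, and FPKM per gene with its interval were deposited by the authors, who made them with TopHat2 2.0.6 and Cufflinks 2.1.1 on mm9, per the submitters' processing notes. Nothing else of that step is given in the sources used here. Rows of 1 symbol were summed. Symbols missing from a file (86) or with a failed estimate (13) were left out, and 23168 remained. No fragment counts were used. Genes at 20 to 100 FPKM had a deposited interval of ± 5.65% to 21.9% over the 12 libraries, which stands in for depth and covers the authors' estimation error only. Replicates of a stage and set correlated at 0.932 to 0.968 over tested genes. The sets were split at a median of 11 FPKM over genes at 1 FPKM or more.

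Symbols at 1 FPKM or more in at least 4 of the 12 libraries were fitted as log2(FPKM + 1) with limma 3.58.1 under R 4.3.3 (eBayes, robust and with a trend), using terms for stage and library set, adjusted by Benjamini and Hochberg at 0.05 over all tested genes. The comparison, the members, lists, markers and tests were chosen with earlier results of these data known. Named are the sort gate genes, regulators, the 10 largest rises and falls among called genes whose mean reached 10 FPKM, and up to 3 called members per list. Other names were chosen after their values were seen. A few items are not reported here. On simulated data with 200 of 10642 genes changed (5 simulations), between 58% and 66% of 2-fold changes were found in this comparison, between 95% and 98% of 4-fold ones, with 4 to 6 unchanged genes called. Noise was drawn independently for each gene and library. Deviations shared between genes, such as those of library 6, were left out, so the rates in the real data may be worse. Alternatives tried were 13 planned and 2 added after the data were seen. Intervals of 7 called genes overlap another gene in the files. Strand use is not stated, so reads of overlapping genes could not be told apart. Sequences are from RefSeq (GRCm38.p6).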

Additional observations from a re-analysis of the deposited data

Results flagged for a closer look

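Of 104 groups examined (52 genes, with the 7 stage 2 and the 5 stage 1 libraries each), 4 held a library far from the rest of its stage once the mean of its set was removed from the log2 values, where chance gives about 1 in 20. Stage 2 library 6 had 17.4 FPKM of Lef1, and the other stage 2 libraries had 40.4 to 57.4 FPKM. The same library had 35.6 FPKM of Slc29a1, against 53.0 to 64.9 FPKM in the others. It also had 62.5 FPKM of Mgst2, below the 2 other stage 2 libraries of its set, while the others spanned 41.6 to 130 FPKM over both sets. Stage 2 library 3 had 0.838 FPKM of Prss23, against 0 to 0.279 FPKM in the others.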

How the results depend on the processing

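The main fit gave 44 calls (22 higher and 22 lower in stage 2). Leaving out 1 library gave 19 to 53 calls (9 to 28 higher and 7 to 34 lower). The fewest came without stage 2 library 5 and without stage 1 library 2. The whole rule was applied, so these counts also required passing with stage 2 library 6 left out as well. By adjusted p with the 1 library alone left out, 28 to 44 of the 44 passed. With no term for library set 1 gene was called (1 higher, 0 lower), with no filter on low values 8 (2 and 6), and a filter at 5 FPKM left 14 lower. Quantile normalization gave 72 (49 higher), the 18 thymic libraries 75 (50 higher), all 26 libraries 62 (42 higher), and array weights 79 (44 and 35). Set A alone gave 11 (8 and 3) and set B alone 4 (3 and 1). Both alternatives added after the data were seen lowered the count, to 25 (14 and 11) with the file layout as a further term and to 24 (16 and 8) without stage 2 libraries 6 and 7. The cause was not tested, except that a fit of 1 set holds fewer libraries. Pseudocount 0.1, upper-quartile scaling and the highest row per symbol stayed within 1.5 times. With the replicate number as a block, on the libraries numbered 1 to 5, 66 genes were called (51 higher), and 27 of the 44 passed. The deviations of same-numbered libraries from the level of their stage and set correlated at -0.038 to 0.464. These correlations were over 0.1 for numbers 1, 2 and 3 alone, which also matched best with their own number. Numbers 3 and 4 had their stage 2 library in set A and their stage 1 library in set B. As not every number matched and the labels give no shared source, the numbers were not taken as pairs. Whether numbers 1 and 2, both within set A, are pairs is not known. The interaction of stage and set gave 0 to 117 calls when 1 library was left out and 0 under every other alternative fitted. Id2 turned to -0.058 with no set term, and none of the 44 called genes reversed under any alternative. The same sign in each set and without stage 2 library 6 was part of the rule, so signs in those fits were fixed beforehand. With sets that differ this much and 2 stage 1 libraries in set A, changes of 2-fold or less can be missed. Larger differences can fail the threshold too, as that of Gzmb did.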
